A study of Mus musculus with 12 samples.

Results

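Keratins 7, 8, 18, 19 and 23 and vimentin were followed across 4 populations of mouse liver cells sorted by EGFP. The set holds 6 genes, Krt7, Krt8, Krt18, Krt19, Krt23 and Vim, chosen by symbol from the 54227 gene symbols of the table, and all 6 passed the filter of a mean normalised count of at least 10 that 16128 symbols passed. All cells came from dissociated livers of C57Bl/6 mice carrying the Sox9EGFP transgene, in which regulatory sequence of Sox9 drives EGFP, and all mice had been fasted for 16 h. The EGFP-negative cells carry the same transgene and serve as the comparison population. The populations are called neg, sub (dimmest EGFP), low and high, with 3 libraries of 12000 cells each; the age and sex of the mice are not given in the sources used here. The labels do not say whether the 3 libraries of a population came from separate animals, so p-values measure the spread between these libraries.

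Intermediate filaments are rope-like polymers of the cytoskeleton. Keratins assemble only as pairs of a type I and a type II protein: Krt7 and Krt8 are type II, and Krt18, Krt19 and Krt23 are type I. In the liver, hepatocytes make Krt8 and Krt18, while bile duct cells add Krt7 and Krt19, which are used as biliary markers. Vimentin is a type III protein that assembles with itself and is the usual intermediate filament of endothelial, stellate and other mesenchymal cells.

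Recovered depth was 8775387 to 15535588 reads per library, and 1 read corresponded to 0.691 to 1.22 normalised counts. Biliary markers (15 genes, keratins left out) summed to 277.1–1011 normalised counts in neg libraries, 24495–42353 for sub, 87618–107052 for low and 83026–86991 for high. Endothelial markers (12 genes) summed to 110069–158578, 35497–39947, 756.1–2195 and 555.4–928.5 in the same order. Stellate markers (10 genes) summed to 22746–41490, 26429–38584, 319.7–2000 and 400.2–1737. Low and high thus carried biliary markers, neg carried endothelial and stellate markers, and sub carried all 3 kinds. In a bulk library, fewer cells of a type and less RNA per cell cannot be told apart, which holds for every level given here.

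Krt8 and Krt18 lie next to each other on chromosome 15 of GRCm38 (mm10). Krt8 spans chr15:101996698-102004482 on the minus strand with 9 exons, and Krt18 spans chr15:102028180-102032027 on the plus strand with 7 exons. The 2 genes are 23697 bases apart. Vim lies at chr2:13573927-13582826 on the plus strand with 9 exons. The RefSeq promoter table of GRCm38.p6 held 5 of the 6 members, Krt19 being the other. The 250 bases before the RefSeq start of Krt8 (chr15:102004343-102004592, minus strand), Krt18 (chr15:102027966-102028215, plus strand) and Vim (chr2:13574061-13574310, plus strand) are shown, since the keratin pair and Vim carry the main contrast between populations. GENCODE M21 starts Krt8, Krt18 and Vim 140, 36 and 384 bases earlier, so in that annotation the windows lie partly (Krt8, Krt18) or wholly (Vim) inside the gene. Capitals mark matches to the motifs searched.
Krt8: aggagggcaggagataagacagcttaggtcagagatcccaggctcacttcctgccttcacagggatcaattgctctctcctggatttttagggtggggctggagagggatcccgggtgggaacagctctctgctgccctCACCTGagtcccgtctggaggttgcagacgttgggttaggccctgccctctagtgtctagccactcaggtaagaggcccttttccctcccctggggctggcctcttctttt
Krt18: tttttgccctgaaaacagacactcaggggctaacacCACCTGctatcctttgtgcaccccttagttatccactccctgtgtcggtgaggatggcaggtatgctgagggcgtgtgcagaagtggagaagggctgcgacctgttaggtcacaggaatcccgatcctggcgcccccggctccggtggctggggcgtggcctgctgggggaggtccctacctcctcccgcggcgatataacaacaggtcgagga
Vim: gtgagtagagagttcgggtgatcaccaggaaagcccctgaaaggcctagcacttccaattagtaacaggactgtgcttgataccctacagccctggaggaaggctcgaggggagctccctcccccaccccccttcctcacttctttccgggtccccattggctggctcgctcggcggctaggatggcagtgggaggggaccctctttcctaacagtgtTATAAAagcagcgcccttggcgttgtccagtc

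Short motifs were searched on both strands of these windows and of all 32851 promoter windows of the same length. CACCTG, an E2 box that Zeb and Snail repressors can bind, was present once in each of Krt7, Krt8, Krt18 and Krt23, and not in Vim. It lay 44, 111, 214 and 232 bases before the RefSeq start in that order, and 17.2% of all windows held it. This motif was added after the sequences had been read, so its presence in 4 keratins is a description only. TATAAA, the TATA box, was found in Vim alone, 32 bases before its start, and in 12.4% of all windows. GGGCGG, the GC box bound by Sp1, was found in Krt7 alone, with 4 matches, and in 32.7% of all windows. GENCODE M21 starts Krt7 1360 bases earlier and Krt23 17 bases earlier, so that the whole Krt7 window lies inside the gene in that annotation. None of the 5 windows held TGANTCA (AP-1), AACAAT (SOX) or CATTCC (TEAD), which 6.75%, 9.42% and 12.6% of all windows held. No 2 matches overlapped. A match is not a binding site, and an absent match says only that the letters are not in the window.

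Across the 4 populations, the moderated F test of limma called Krt8 (Benjamini-Hochberg adjusted p = 2.5e-07), Krt18 (2.37e-05), Krt19 (3.38e-05) and Vim (7.53e-05). Krt7 (0.339) and Krt23 (0.272) did not pass. Of all tested genes, 4.23% passed this test.

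**Figure D1:**
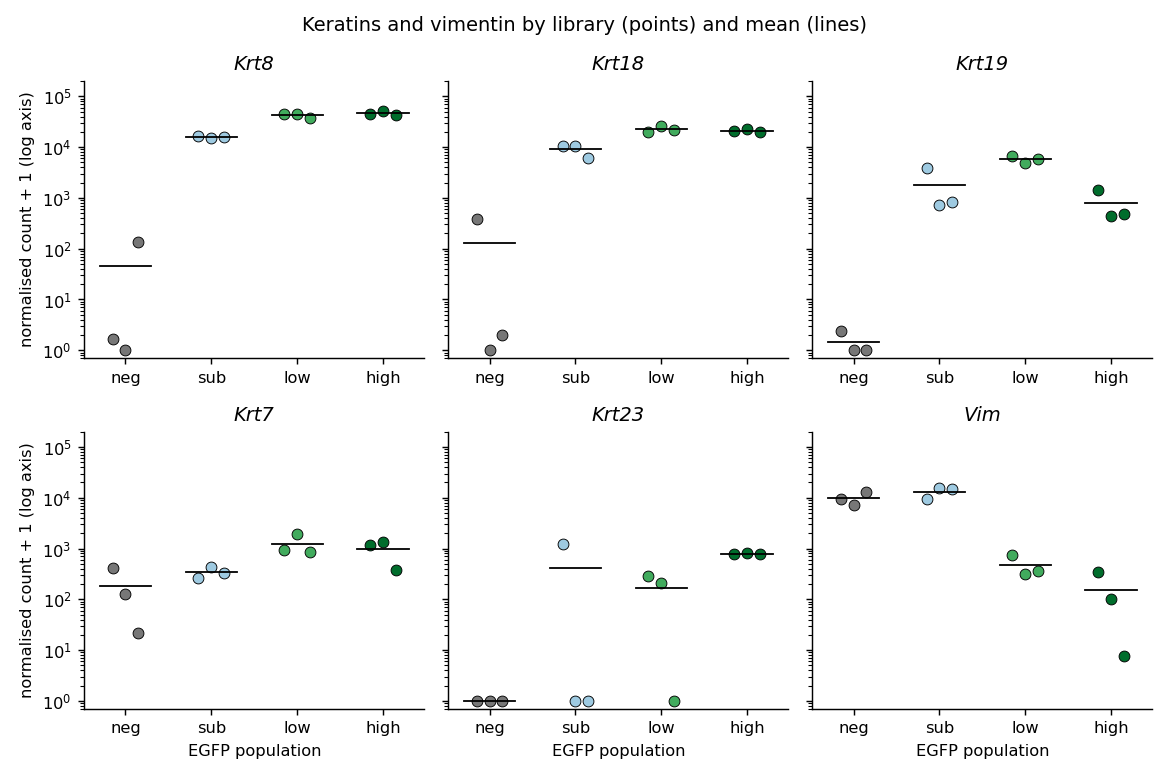
Normalised counts of the 6 genes in each library (points, value + 1 on a log axis) with the population mean (line), for neg, sub, low and high. Krt8 and Krt18 are near 0 in most neg libraries and high in all EGFP-positive ones, Vim is high in neg and sub, and Krt19 is highest in low.

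Krt8, the type II keratin shared by hepatocytes and bile duct cells, was the most abundant of the 5 keratins in every EGFP-positive library. Neg 1, 2 and 3 had normalised counts of 0.691, 0 and 133.3. It was 16648, 15117 and 15713 in sub, 45633, 44695 and 37197 in low, and 45340, 50992 and 43439 in high. Every EGFP-positive library lay above every neg library and every low and high library above every sub library, while low and high overlapped. Mean Krt8 was 354.4-fold higher in sub than in neg (log2 fold change 11.34 ± 1.08 (SE), limma adjusted p = 2.32e-06). Against neg it was 951.9-fold higher in low (12.76 ± 1.08, limma adjusted p = 2.83e-07) and 1043-fold higher in high (12.89 ± 1.08, limma adjusted p = 2.1e-07). These folds rest on a neg mean of 44.7 ± 76.7 (SD, n = 3) that neg 3 nearly alone supplies. Without neg 3 they were at least 5513, 14807 and 16229, against a floor of 3 reads per library, and without neg 2 that of sub was 236.3.

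Krt18, the type I partner of Krt8, was likewise lowest in neg, intermediate in sub and high in both low and high, with a slightly greater mean in low than in high. It was 390.4, 0 and 0.966 in neg, and 10410, 10498 and 6227 in sub. It was 20204, 26439 and 21588 in low, and 20360, 22300 and 19900 in high. Again the EGFP-positive libraries did not overlap neg, and low and high did not overlap sub. Mean Krt18 was 69.3-fold higher in sub than in neg (log2 fold change 9.91 ± 1.33 (SE), limma adjusted p = 0.000192). Low was 174.4-fold above neg (11.27 ± 1.33, limma adjusted p = 1.91e-05) and high 159.9-fold (11.15 ± 1.33, limma adjusted p = 2.24e-05). The neg mean of 130.4 ± 225.1 (SD, n = 3) came almost wholly from neg 1; without neg 1 the folds were at least 2755, 6927 and 6352, and without neg 2 that of high was 106.6. Neg 1 had 390.4 for Krt18 and 1 read of Krt8, while neg 3 had 133.3 for Krt8 and 1 read of Krt18.

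Krt19, a type I keratin of bile ducts with an unusually short tail, lies at chr11:100140810-100148665 on the minus strand with 6 exons. It was 1.38, 0 and 0 in neg, which is at or under the floor of 3 reads per library. It was 3828, 709.8 and 845.8 in sub, 6631, 4936 and 5820 in low, and 1415, 448.7 and 485.1 in high. All low libraries lay above all sub and all high libraries, and sub and high overlapped. Against the neg floor, mean Krt19 in sub was at least 623.2-fold higher (limma adjusted p = 0.000218). For low it was at least 2013-fold higher (limma adjusted p = 1.06e-05), and for high at least 271.9-fold (limma adjusted p = 0.000313). Without sub 1 the bound for sub was 270.1-fold, and without high 1 that for high was 162.1-fold. The call for sub was lost in a fit of sub and neg alone (limma adjusted p = 0.233) and held in the other 22 of 23 alternatives, down to an adjusted p of 1.78e-15 in DESeq2.

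For sub against neg the same 3 keratins, Krt8, Krt18 and Krt19, were therefore called higher, against a background of 1.04% of all tested genes, and no member was called lower, against 0.149%. For low against neg these 3 were called higher (background 2.55%) and Vim lower (background 2.15%). For high against neg the counts were again 3 higher (background 2.44%) and 1 lower, Vim (background 2.25%). These 3 comparisons share the neg libraries and are not independent of one another.

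Vim had the opposite pattern. Its normalised count was 9460, 7122 and 12996 in neg and 9494, 15565 and 14666 in sub. It was 734, 310.1 and 352.6 in low, and 351.3, 99 and 6.53 in high. Neg and sub overlapped, as did low and high, and the 2 pairs of populations were far apart. The mean was 1.34-fold higher in sub than in neg, a difference within the spread between libraries (log2 fold change 0.44 ± 0.99, limma adjusted p = 0.967). Low was 21.2-fold below neg (log2 fold change -4.47 ± 0.99, limma adjusted p = 0.0113), and high was 64.7-fold below it (-7.22 ± 0.99, limma adjusted p = 0.000118), or 186.8-fold without high 1. The low call was lost without neg 3 (0.0659), low 2 (0.0586) or low 3 (0.0553), by limma adjusted p, and ranged from 1.57e-05 to 0.118 over all alternatives.

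Sub libraries thus held Vim in a range that overlapped neg, together with Krt7, Krt8, Krt18 and Krt19 below the low range; Krt23, at 1240 in sub 1, was not below it. Mean Vim in sub was 134.3% of that in neg, beside 98.6% for the summed stellate markers and 27.8% for the summed endothelial markers. Single markers varied within both lists. From neg to sub, mean stellate Lrat went from 458.4 to 47.3, Hgf from 955.9 to 381.7 and Pdgfrb from 1671 to 2681. Mean endothelial Kdr went from 28578 to 5925, Pecam1 from 12115 to 6869 and Lyve1 from 632.7 to 638.6. For sub against neg, 0 of 10 stellate and 0 of 12 endothelial markers were called, where 1.04% of all genes were higher and 0.149% lower. Mean levels in sub relative to low were 37.2% for Krt8, 39.8% for Krt18, 31% for Krt19 and 27.4% for Krt7, beside 33.1% for the summed biliary markers. The Krt19 value rests on sub 1: without that library mean Krt19 was 7.45-fold higher in low than in sub, in place of 3.23-fold. In low, Vim stood at 4.72% of its neg level, beside 3.56% for stellate and 1.1% for endothelial markers. In high it stood at 1.54%, beside 3.59% and 0.515%, and at 0.535% without high 1. The stellate values are means of sums that ranged from 319.7 to 2000 over the low libraries and from 400.2 to 1737 over the high ones. Single markers of both lists differed in how much of their neg mean was left in low and high. Of 12 endothelial markers, Lyve1 and Erg were at 0 in all low libraries and Eng and Erg in all high ones. Pecam1 kept 4.75% of its neg mean in low and 3.24% in high, where its libraries had 707, 359.8 and 111.1. Lyve1 kept 5.38% of its neg mean in high. Of 10 stellate markers, Lrat and Hgf were at 0 in low, and Lrat, Hgf, Col3a1 and Pdgfrb in high, while Reln, a secreted protein of stellate and some endothelial cells, kept 13% and 16.3%. The part of these cell types in the Vim differences was not tested.

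**Figure D2:**
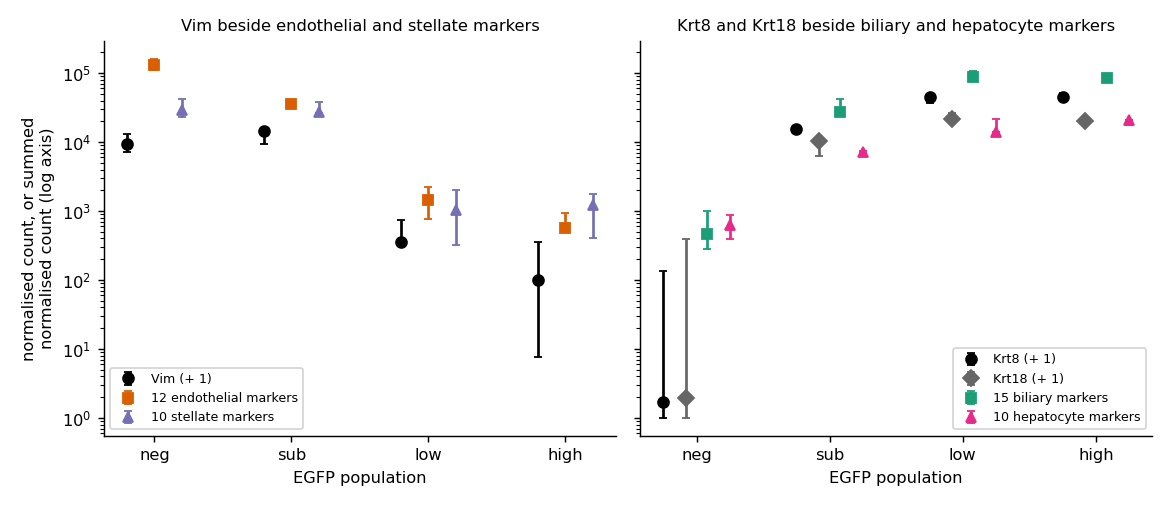
Left, Vim beside the summed endothelial and stellate markers; right, Krt8 and Krt18 beside the summed biliary and hepatocyte markers, as normalised counts on a log axis, with the median (symbol) and the lowest and highest library (bars) of each population. Vim overlaps neg in sub, as the stellate sum does and the endothelial sum does not, and is low with both sums in low and high. Krt8, Krt18 and the biliary and hepatocyte sums are all lowest in neg and lower in sub than in low and high.

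Markers of other cells were compared with the keratins as well. Hepatocyte markers (10 genes) summed to 395–871.2 in neg, 6880–7523 for sub, 13930–21610 for low and 17968–20955 for high, so that neg was lowest here too. Of these 10 genes, 2 were called higher than neg in sub (Alb and Ahsg; 1.04% of all genes), 3 in low (with Hnf4a; 2.55%) and 4 in high (with Ttr; 2.44%), and none lower. Mean Alb, the albumin gene, was 161.6 in neg, 3539 for sub, 11246 for low and 11927 for high. Apoa1, an apolipoprotein gene that made up most of the neg sum, had means of 410.8, 116.4, 82.4 and 53.5 in the same order, and Cyp2e1 of 51.8, 165.6, 4.21 and 0. Cps1 was at 0 in all sub libraries, Cps1 and Cyp2e1 in all high ones, and Hnf4a, Fgb, Tat and Serpina1c in all neg ones. Mesothelial cells also make Krt8, Krt18 and Krt19. Their markers (8 genes, 5 tested, none called) summed to 702–2007 in neg, 1258–3337 for sub, 536.7–644 for low and 604.4–1634 for high. Upk1b was at 0 in all 12 libraries, while Upk3b was 16.4 in neg 3 and 688.2 in sub 3. Msln was 250.8 in neg 1, 356.4 in neg 3, 60.8 in sub 3 and 408.2 in low 1. Kupffer cell markers (10 genes, 4 tested) summed to 0–575.5 in neg, 427.4–574.5 for sub, 814–1220 for low and 518.6–1526 for high, so that low lay above neg. Csf1r, the receptor of macrophage growth factors, was the 1 of 4 called, higher than neg in low (limma adjusted p = 0.0162; 2.55% of all genes) and in high (0.0189; 2.44%), while Clec4f, Adgre1, Vsig4, Timd4, C1qa and Marco were at 0 in all low libraries. Lymphocyte markers (10 genes, 4 tested, none called) summed to 0.691–1108, 0–357.1, 0–105.2 and 29.4–554.9. At most 2.55% of all tested genes were called in 1 direction of a contrast. No call among 4 lymphocyte or 5 mesothelial genes is near that share and does not show that these cells were absent. The part of these cells in the keratin levels was not tested.

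From sub to low, 4 keratins lay higher in all low libraries than in all sub libraries, Krt7, Krt8, Krt18 and Krt19, and Vim lay lower in all of them. That is 5 of 6 members, against 11.7% of all tested genes whose libraries did not overlap in this comparison. Vim was the one member that limma called over all 12 libraries, against 0.744% of all genes: it was 28.4-fold lower in low (log2 fold change -4.90 ± 0.99, adjusted p = 0.0282). This call was lost in 11 of 24 alternatives, 8 of them leaving out 1 library (any neg or sub library, low 2 or low 3), with adjusted p between 1.89e-06 and 0.155. Mean Krt8 was 2.69-fold higher in low, mean Krt18 2.51-fold and mean Krt19 3.23-fold, or 7.45-fold without sub 1.

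The shared spread bears on the keratin pair in that fit. On the log2 scale the SD of Krt8 was 3.88 in neg, where 2 of 3 libraries had at most 1 read, and 0.07 in sub, 0.162 in low and 0.12 in high. A limma fit of only sub, low and high, added after seeing the data, gave Krt8 a difference of 1.42 ± 0.08 between low and sub (adjusted p = 5.84e-08) where the 12 libraries together gave the same difference with an SE of 1.08 (adjusted p = 0.699). For Krt18 the difference was 1.36 ± 0.17 (adjusted p = 0.00046), against 1.36 ± 1.33 (adjusted p = 0.757). In the smaller fit Krt19 (2.12 ± 0.69, adjusted p = 0.204), Krt7 (1.79 ± 0.93, adjusted p = 0.492) and Vim (adjusted p = 0.0872) did not pass, by limma. In the larger fit Krt8 passed without neg 3 (adjusted p = 0.0375), where Vim did not (0.0607). Over all alternatives the adjusted p ran from 5.84e-08 to 0.82 for Krt8 and from 0.00046 to 0.883 for Krt18. That fit called 2 of 6 members against 0.463% of all genes.

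From sub to high, Krt8 and Krt18 were higher and Vim lower in all high libraries, 3 of 6 members, against 13.1% of all genes without overlap. Vim was 86.9-fold lower in high, or 250.8-fold without high 1 (log2 fold change -7.65 ± 0.99, limma adjusted p = 0.000527), and the call held in all 24 alternatives (adjusted p 1.74e-10 to 0.0178). It was the only member called over the 12 libraries, where 0.986% of all genes were. In the fit of sub, low and high alone, Krt8 differed by 1.56 ± 0.08 (limma adjusted p = 1.31e-08) and Krt18 by 1.24 ± 0.17 (limma adjusted p = 0.000995), and Vim also passed (limma adjusted p = 0.00268); that is 3 of 6 members against 0.691% of all genes. Without neg 3, Krt8 passed in the larger fit too (limma adjusted p = 0.0171). Over all alternatives the adjusted p ran from 1.31e-08 to 0.789 for Krt8 and from 0.000995 to 0.902 for Krt18. Low and sub, and high and sub, share the sub libraries.

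**Figure D3:**
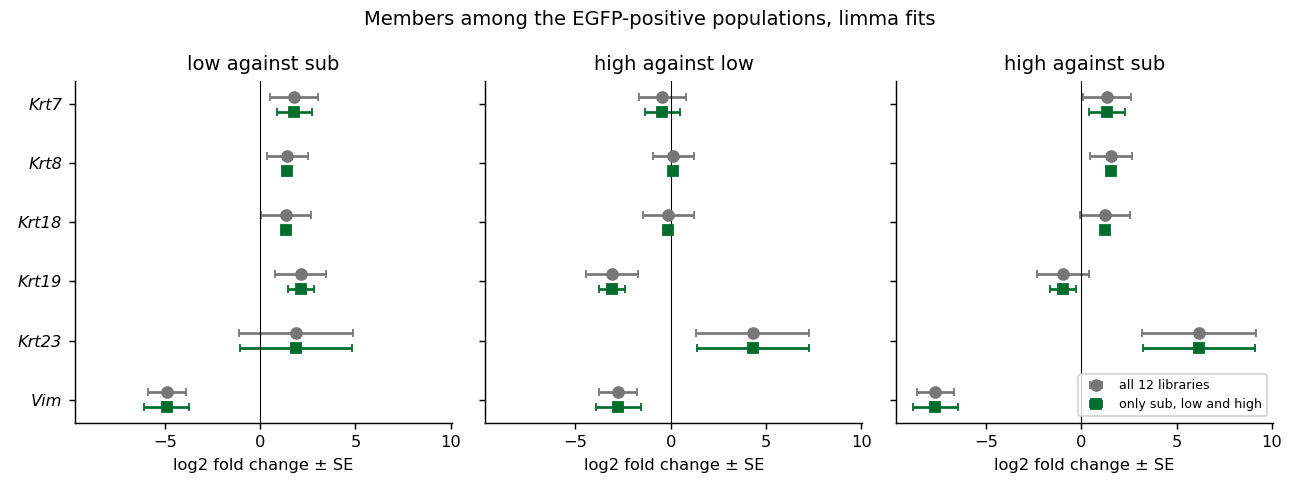
Log2 fold changes with SE of the 6 genes between the EGFP-positive populations, from limma fits to all 12 libraries (grey circles) and to the 9 libraries of sub, low and high (green squares). The estimates are the same in both fits, and the SE of Krt8 shrinks from 1.08 to 0.08 when neg is left out.

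Between low and high, no member and no other gene passed in the fit of all 12 libraries (limma; 0% of tested genes). At an unadjusted p under 0.05 limma had 684 genes, and the count tests called 34 genes with edgeR and 646 with DESeq2. Krt8 (log2 fold change 0.13 ± 1.08) and Krt18 (-0.12 ± 1.33) had means within 1.1-fold of each other. In the 9-library fit these differences were 0.13 ± 0.08 and -0.12 ± 0.17, with limma adjusted p of 0.959 and 0.99. Mean Vim, whose low and high libraries overlapped, was 3.06-fold lower in high, or 8.82-fold without high 1. Over the 12 libraries its log2 fold change was -2.75 ± 0.99 (SE, unadjusted p = 0.012, limma), and 0 of 24 alternatives called it.

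Krt19 and Krt23 were the members whose libraries did not overlap between low and high, 2 of 6 against 7.34% of all genes. Mean Krt19 was 7.4-fold lower in high, or 12.4-fold without high 1 (log2 fold change -3.09 ± 1.35; unadjusted p = 0.0335, adjusted p = 1, limma). A limma fit of low and high alone called it (adjusted p = 1.54e-06), as did DESeq2 (adjusted p = 0.0163), whereas edgeR did not. Of 24 alternatives 3 called it, the third being DESeq2 without its outlier rule, added after seeing the data.

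Krt23, a type I keratin described in stressed and diseased liver, lies at chr11:99477974-99493137 on the minus strand with 8 exons. It was 0 in all neg libraries, and 1240, 0 and 0 in sub. It was 292.4, 212.4 and 0 in low, and 763.2, 821.7 and 766.1 in high. High was the only population with counts in every library, and sub 1 lay above all of them. Mean Krt23 in high was 783.7 ± 33 (SD, n = 3), at least 272.1-fold above the neg floor of 3 reads per library (unadjusted p = 0.00442, adjusted p = 0.074, limma). This difference passed in 4 of 22 alternatives, including edgeR (adjusted p = 0.049), with adjusted p from 1.03e-13 to 0.181. The means of low and high differed 4.66-fold, or 7.38-fold without low 1 (limma adjusted p = 1).

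Krt7, the type II keratin of ducts and glands, lies at chr15:101411043-101430313 on the plus strand with 9 exons. It was 410.4, 127.2 and 20.3 in neg and 258.7, 428.2 and 329.2 in sub. It was 943.3, 1909 and 851.5 in low, and 1198, 1346 and 384.7 in high. All low libraries lay above sub and neg, while high 3 lay within the sub range and neg overlapped sub. No contrast of Krt7 passed in limma: for low against neg the log2 difference was 3.47 ± 1.25 (SE; adjusted p = 0.145), which DESeq2 called (adjusted p = 0.0332; 0.0237 to 0.378 over all alternatives). The fold of means was 6.64, or 16.7 without neg 1, and the log2 difference was 4.47 without neg 1 and 2.33 without neg 3. Krt7 was the one keratin above the floor of 3 reads in all 3 neg libraries.

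Compared per length, the EGFP-positive populations were dominated by the Krt8 and Krt18 pair. Per kb of the longest coding transcript, mean Krt8 was 8083 in sub, 21710 in low and 23795 in high, and mean Krt18 was 6294, 15827 and 14512. Krt19 was 1139, 3677 and 496.8 normalised counts per kb, Krt7 82.7, 301.6 and 238.5, and Krt23 264, 107.5 and 500.7. The Krt7 transcript used has 4094 bases and those of the other keratins 1437 to 1958. The place of Krt7 beside Krt19 and Krt23 therefore depends on this choice of transcript. The sub mean of Krt23 came from sub 1 alone, and without sub 1 mean Krt19 in high was 1.01-fold that in sub. Over the 9 EGFP-positive libraries, Krt8 and Krt18 made up 83.5% to 97.5% of the summed normalised counts of the 5 keratins. The 6 genes together took 0.0962 ± 0.0289% of neg libraries, 0.364 ± 0.017% of sub, 0.648 ± 0.0619% of low and 0.635 ± 0.0572% of high ones (SD, n = 3 each). Vim supplied 92.2–98.8% of that sum in neg, 22.7–38.8% for sub, 0.395–0.986% for low and 0.0101–0.506% for high.

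Type I and type II keratins, which pair in the filament, were summed per kb. In sub the type I sum was 4870–10465 and the type II sum 7825–8566. In low they were 18455–21666 and 19205–23537, and in high 14645–16328 and 22280–26372. Within each library the type II sum was the larger in all low and high libraries and in sub 2 and sub 3, and the type I sum was the larger in sub 1. RNA levels per length do not give protein amounts.

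The ratio of Krt8 to Krt18 normalised counts was 1.44–2.52 in sub, 1.69–2.26 in low and 2.18–2.29 in high. It did not differ between the 3 populations beyond the spread of libraries (exact permutation test over 1680 assignments, p = 0.357, adjusted over 2 ratios 0.357). The test counted assignments with a between-group sum of squares of the log2 ratio at least as large as that observed. Without sub 3 the exact p was 0.0393. The log2 ratio of Krt7 to Krt19, the 2 ductal keratins, averaged -1.99 ± 1.67 for sub, -2.32 ± 0.82 for low and 0.34 ± 1.08 for high (SD, n = 3 each). Its exact permutation p was 0.0714 (adjusted 0.143), and 0.025 without sub 1. Krt19 made up 5.81–23.2% of type I keratin per kb in sub, 14.4–22.8% in low and 1.74–5.77% in high. The high libraries thus lay below all others, with high 1 (5.77%) nearly level with sub 2 (5.81%). This share was not tested.

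**Figure D4:**
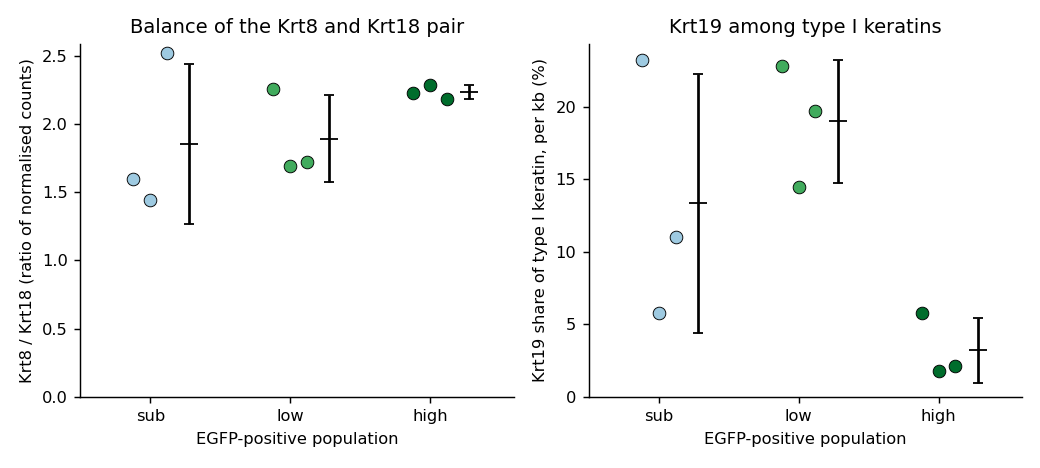
Left, the ratio of Krt8 to Krt18 normalised counts; right, the share of Krt19 in the type I keratins per kb (percent), per library (points) with the mean and SD (bars) of sub, low and high. The Krt8 to Krt18 ratio lies between 1.44 and 2.52 in all 9 libraries, and the Krt19 share is at most 5.77% in high.

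Other intermediate filament genes gave the surroundings of these 6. Of 49 further keratin genes, 41 had no count in any library and 4 passed the filter, Krt17, Krt78, Krt80 and Krt222. None of these 4 was called in any contrast, where at most 2.55% of all tested genes were called in 1 direction. Krt80, a type II keratin of many epithelia, was 830.7, 548.8 and 846.1 in high but 769.6, 6.8 and 4.93 in low, 0 in all sub libraries, and 17.3, 0 and 0 in neg. Krt17 had counts in low 1 and low 2 (145.5 and 332.2) and, with 0.817 in high 3, was 0 in the remaining libraries.

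Of 15 non-keratin filament genes, 8 passed the filter. Lmna, the nuclear lamin A/C gene, was called higher than neg in sub (log2 fold change 2.07 ± 0.35, limma adjusted p = 0.00194), in low (2.17 ± 0.35) and in high (2.17 ± 0.35). Des, desmin of muscle and stellate cells, was 915.5, 1180 and 1228 in neg and 1410, 1962 and 2537 in sub. It was 0, 0 and 0.822 in low and 19.9, 0 and 0 in high, and was called lower in low and in high than in either neg or sub. Nes and Synm, nestin and synemin, were called lower in high than in neg and in sub. Each count is thus of 8 genes, with 1 called higher and none lower for sub against neg (1.04% and 0.149% of all genes), 1 lower for low against sub (0.744% in either direction), 1 higher and 1 lower for low against neg (2.55% and 2.15%), 1 higher and 3 lower for high against neg (2.44% and 2.25%), and 3 lower for high against sub (0.986% in either direction). The median log2 fold change of the 8 tested genes was 0.56 for sub against neg and 0.05 for low against sub, where the median over all genes was 0. For low against neg it was 1.14 (0 over all genes), and for high against neg 1.09 (0.13 over all genes).

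Plakins and desmosome proteins, which anchor keratin filaments to junctions, had 14 of 15 genes tested. For sub against neg 4 were called higher and none lower, where 1.04% and 0.149% of all genes were: Eppk1 (epiplakin, at 0 in neg, mean 3665 in sub), Dsg2 (147.6 against 8906), Dsp (desmoplakin, 137.2 against 9248) and Ppl (periplakin, 1107 against 12431). For low against neg 6 were called higher (2.55% of all genes), including Eppk1, Dsg2, Dsp and Pkp2, and 1 lower (2.15%), Macf1, which links actin and microtubules (42017 in neg, 10715 in low). For high against neg the same 4 as in sub were called higher (2.44% of all genes), and Macf1 lower (2.25%). Low against sub and high against sub each gave 1 call, Macf1 lower (0.744% and 0.986% of all genes in either direction), and none was called for high against low. The list's median log2 fold change was 2.72 for sub against neg, 1.51 for low against sub and -0.18 for high against low, beside 0 over all genes in each.

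Genes often read together with Vim did not all follow it. Of 10 mesenchymal genes 8 were tested. Of these 8, 1 was called higher and none lower for sub against neg (1.04% and 0.149% of all genes), 1 higher and 2 lower for low against neg (2.55% and 2.15%), 1 higher and 3 lower for high against neg (2.44% and 2.25%), none for low against sub (0.744%) and 1 lower for high against sub (0.986%). Zeb1 and Zeb2, repressors of epithelial genes, were called lower in low than in neg, with means of 4508 and 7602 in neg and 96.2 and 152.6 in low, and also lower in high than in neg. Sparc, a matricellular protein, was called lower in high than in neg and in sub. Fn1, fibronectin, which hepatocytes also make, was called higher in sub (log2 fold change 2.05 ± 0.25, limma adjusted p = 6.25e-05), in low (2.20 ± 0.25) and in high (2.70 ± 0.25) than in neg. The list's median log2 fold change was -0.69 for sub against neg, -1.48 for low against sub and -4.37 for high against sub, where the median over all genes was 0, 0 and 0.20.

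The genes most like each member over the 12 libraries were found by Pearson's r of log2(normalised count + 1) among 9608 genes with a mean of at least 100. They share libraries and the difference between neg and the rest, and r is a description. For Krt8 they were Pik3ap1 (0.987), Sorbs2 (0.986) and Met (0.985), and for Krt18 Shank2 (0.997), Sgms2 (0.993) and Ambp (0.991). For Krt19 they were Lad1 (0.98), Epcam (0.97) and Map3k21 (0.968), all at 0 in neg; Lad1 averaged 639 in sub, 1426 in low and 388 in high. For Krt7 they were Epb41l1 (0.926), Hmgcs1 (0.916) and Cacul1 (0.913). For Vim they were Tnxb (0.994), Adgrf5 (0.966) and the endothelial adhesion gene Pecam1 (0.959); Tnxb, tenascin XB, averaged 6055 in neg, 7940 for sub, 245.8 for low and 52.5 for high. Krt23 was matched by Zkscan14 (0.992), Zfp7 (0.989) and Bckdha (0.989), and here r rests on which libraries were at 0.

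Near copies and overlapping genes that could take reads of the members were checked. Krt8-ps, a processed pseudogene with 98.618% identity to Krt8 over 941 bases, had 267.5 normalised counts in sub 1, 4.04 in high 2, 1.63 in high 3 and 0 elsewhere, a sum of 0.0868% of that of Krt8. Gm5200, with 90.5% identity to Krt18 over 1267 bases, was at 0 throughout. The antisense gene Gm671 overlaps the start of Krt7, and the non-coding gene Gm36026 that of Krt8, both on the opposite strand. The use of strand in counting is not given in the sources used here, so reads of these overlaps may be shared.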

How the data were processed

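Total RNA of sorted liver cells was converted with a stranded random-primed low-input kit, per the labels' protocols. Gene values were deposited as normalised counts, the signal analysed here; Salmon, DESeq2 1.26.0 and mm10 are named in the submitters' processing notes. Every value was a whole multiple of 1 step per library (tolerance 0.01), so whole reads could be recovered, without molecular identifiers; limits from reads cover counting error only.

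Genes with a mean of at least 10 were tested on log2(value + 1) with limma 3.58.1 in R 4.3.3 (variance trend, all 12 libraries, population the only term, two-sided, Benjamini-Hochberg over 16128 genes, threshold 0.05). The pseudocount shrinks log2 fold changes of low genes. As differences of mean log2 values, they exceed the log2 of the printed fold of means where 1 library supplies most of the lower mean, as for Krt8 and Krt18 in neg. edgeR 4.0.16 and DESeq2 1.42.0 on recovered reads, other pseudocounts, filters and scalings, a replicate block and leaving out each library were alternatives, and tests were tested on simulated data. The simulation gave all genes the same small spread and changed only well-detected genes. It therefore does not show how the tests behave on genes that are at 0 in some libraries of a population. Near copies were found with BLAST+ 2.17.0. Folds against a group with at most 3 reads in every library use 3 reads per library as floor. Named genes were the members, the 3 genes most like each, keratins past the filter and list members past the threshold (at most 4 a list and contrast); cell type markers named for their level, and Macf1 against neg, were chosen after their values were seen. The members and lists were chosen with earlier results of these data known.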

Additional observations from a re-analysis of the deposited data

How the results depend on the processing

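Over 36 combinations of member and contrast and 846 alternative values, 787 kept their direction and side of the threshold, 1 fell to a difference of 0 (Krt23, sub against neg, without sub 1), 17 kept their direction but had no adjusted p (DESeq2), 21 newly passed, 16 were lost and 4 reversed. The number of members called for low against sub went from 1 to 0 with no filter or no variance trend, 3 in a fit of the populations compared and 2 in the added fit of sub, low and high, with 0 to 1 when each library was left out (without neg 3 the 1 was Krt8, higher, not Vim). For high against sub it rose from 1 to 3 in both smaller fits, and was 1 to 2 with each library left out. The fit of the populations compared called 119 of 14639 genes there, and 79 of 14364 for low against sub. For high against low the number of members called rose from 0 to 1 in the fit of the populations compared, in DESeq2 and in DESeq2 without its outlier rule. Of all genes, these called 33 of 14309, 646 of 16128 and 2282 of 16128. DESeq2 gave an adjusted p for 3 members, Krt7, Krt19 and Vim, and none for Krt8, Krt18 and Krt23. Members it called were 1 for sub against neg, 3 for low against neg and 2 for high against neg. Limma called 3, 4 and 4 there. Of all 16128 genes, DESeq2 called 1698, 2352 and 2257 in these contrasts, and limma 192, 757 and 757. Without its outlier rule DESeq2 called 4, 6 and 5 members, and 3785, 4465 and 4355 of all genes. Krt23 in low against sub reversed to -1.25 with edgeR and -1.30 with both versions of DESeq2, and Krt7 in high against low ran from -0.76 to 0.14 with each library left out, reversing without high 3; neither was called. The exact p of the Krt8 to Krt18 ratio was 0.0393 to 0.575, and that of Krt7 to Krt19 0.025 to 0.236, with each library left out. Leaving out each library also moved the number of all genes called, and with it the background shares. For low against sub the number ranged from 10 to 126, where all libraries gave 120. It ranged from 46 to 176 for high against sub (159 with all) and from 424 to 773 for high against neg (757 with all). The replicate block left the member counts at 3, 1, 0, 4, 4 and 1 in the 6 contrasts, while genes called for low against sub went from 120 to 83. Same-numbered libraries correlated at -0.016 to 0.027 in their deviations, none over 0.1, which cannot exclude pairs. The labels name no pairs, so the numbers were not taken as pairs in the main fit, and its p-values take no account of possible pairing. The column names share a suffix for each number, whose meaning the labels do not give, and 10 of 12 libraries correlated best with their own number, a hint of pairing from the data. Depth limits levels under 3 reads, as Krt19 and Krt23 in neg.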
